A study of Jaculus jaculus and Mus musculus with 24 samples.

Results

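The comparison described here is the species by limb interaction in muscle at birth: the log2 difference between foot and forelimb muscle in the jerboa, minus the same difference in the mouse. It used the 12 libraries of newborn (P0) animals out of 24 in the series, and the 12419 of 17641 deposited features that had at least 10 reads in at least 3 jerboa and 3 mouse libraries of P0. That choice rests on read depth and did not use the interaction values. It is not blind to limb, because the 3 libraries of a species could all come from a single limb. A gene without reads in the other limb could therefore pass, as Nos1 did in jerboa. The 4 groups held 3 libraries each, all labelled as normally treated: hindfoot muscle of the jerboa Jaculus jaculus, forelimb flexor digitorum superficialis (FDS) muscle of the jerboa, hindfoot muscle of the mouse Mus musculus, and FDS muscle of the mouse. Foot muscle was taken from sections and the FDS by dissection, in both species. Limb, muscle and way of collection therefore cannot be told apart within a species. An effect of collection that differed between the species would be part of the interaction. Strain, sex and the number of animals per library were not given in the sources used here, and the p-values therefore reflect only library-to-library spread, which may be technical.

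The jerboa is a desert rodent that hops on its hind legs, and it loses the small muscles inside its hindfoot as it grows, whereas the mouse keeps them. The FDS is a flexor of the digits that both species keep in the forelimb. A gene whose foot and forelimb levels differ by the same factor in both species gives an interaction of 0. A positive interaction means that the foot level relative to forelimb was higher in jerboa than in mouse. It can come from a higher jerboa foot, a lower jerboa forelimb, a lower mouse foot, a higher mouse forelimb, or several of these. A rise or fall in the foot, as written below, is relative to the forelimb of the same species.

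Total RNA was sequenced to between 16.7 and 44.6 M counted reads per P0 library (M, reads in units of 1e+06). Foot libraries were shallower than forelimb libraries in both species, at 18.1 ± 1.19 against 31.8 ± 4.34 M reads in jerboa and 27.4 ± 3.84 against 41.0 ± 4.47 in mouse (SD, n = 3). A count of 0 in 1 library allows a level of up to 0.0672 to 0.179 CPM, for counting error only. Levels of single genes are given in CPM, counts per M reads of the normalised library size. Sums over markers are per M reads of the raw library total, without that scaling. The scaling factors were 0.92 to 0.94 in both jerboa groups, 1.10 to 1.16 in mouse foot and 0.999 to 1.03 in mouse forelimb. Neither measure carries a correction for gene length, so levels are not compared between species or between genes. Myofibre markers were abundant in every group, with the 12 tested markers summing to 44420 to 49255 CPM in jerboa foot, 79116 to 88951 in jerboa forelimb, 41307 to 52898 in mouse foot and 79146 to 86968 in mouse forelimb. In both species every foot library held a lower share of myofibre reads than every forelimb library. Of these markers 2 had a called interaction above 0 and 4 below (21.9% and 25.8% of all features). In bulk samples such as these, fewer cells of a type and less RNA per cell cannot be told apart.

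Differences between the species were widespread. By edgeR's quasi-likelihood test with Benjamini-Hochberg adjustment over all 12419 features (adjusted p under 0.05, the threshold used throughout), 5925 interactions were called, 47.7% of those tested. Of these, 2719 were above 0 (21.9%) and 3206 below 0 (25.8%). The middle 50% of interactions lay between -0.46 and 0.37 on the log2 scale and the middle 90% between -1.29 and 1.21, with a median of -0.041. Called interactions of more than 2-fold numbered 861 above 0 (6.93%) and 987 below 0 (7.95%). Behind them, foot and forelimb differed for 8514 features in jerboa (68.6%) and 7306 in mouse (58.8%).

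The called interactions took several forms. Among those above 0, 977 features were higher in jerboa foot than forelimb with no call in mouse, 571 were higher in the foot of both species, 524 were lower in mouse foot with no call in jerboa, and 216 were lower in the foot of both. A further 398 (3.20% of features tested) were higher in jerboa foot and lower in mouse foot, each called in its own species. Among those below 0, 1176 were lower in jerboa foot with no call in mouse, 811 were lower in both, 578 were higher in mouse foot with no call in jerboa, and 135 were higher in both. Another 455 (3.66%) were lower in jerboa foot and higher in mouse foot. Across genes, which are not independent replicates, the foot against forelimb differences of the species had a Pearson's r of 0.476 and a Spearman's rho of 0.502 (n = 12419 features, which share the same libraries).

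**Figure D1:**
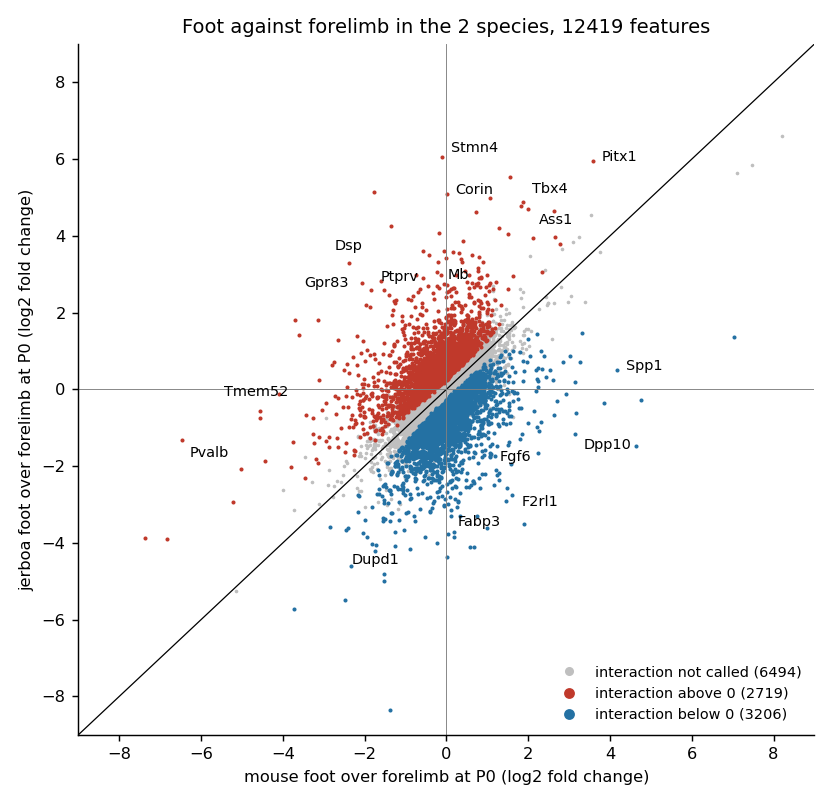
Each point is 1 of the 12419 features, placed by its log2 fold change of foot over forelimb in mouse (horizontal) and in jerboa (vertical) at P0, with 3 libraries in each of the 4 groups. Points above the diagonal have an interaction above 0; the 2719 called above 0 are red, the 3206 called below 0 are blue, and the others are grey.

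The largest positive interactions included Stmn4, which encodes a stathmin family regulator of microtubules. Its level was 9.63, 20.5 and 11.2 CPM in the 3 jerboa foot libraries and 0.181, 0.258 and 0.177 in jerboa forelimb, against 2.97, 2.83 and 2.43 in mouse foot and 2.95, 2.98 and 2.93 in mouse forelimb. Every jerboa foot library lay above every jerboa forelimb library, while the mouse libraries overlapped. Over all features, foot and forelimb libraries did not overlap for 71.9% in jerboa and 65.2% in mouse. The interaction of Stmn4 was 6.16 ± 0.43 (log2 ± SE, as for all interactions and single contrasts that follow; adjusted p = 6.9e-08 by edgeR). Jerboa forelimb held 18 reads of Stmn4 in all, so the size of the fold there is imprecise. The neuron markers, to which Stmn4 belongs, summed to 47.3 to 55.5 CPM in jerboa foot and 30.2 to 32.9 in forelimb, and to 47.3 to 57.1 CPM in foot and 25.97 to 32.1 in forelimb in mouse. Of 6 neuron markers tested 2 had a positive and 1 a negative interaction (21.9% and 25.8% of all features), and 9 others were below the filter. The motor neuron gene Chat had no read in any group, and the part of these cells in the result was not tested.

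Corin, a membrane serine protease that activates atrial natriuretic peptide, followed the same form. Jerboa foot libraries stood at 45.7, 39.7 and 31.2 CPM and forelimb libraries at 1.16, 1.51 and 0.797, while mouse foot at 11.6, 15.01 and 12.9 and mouse forelimb at 13.7, 14.7 and 11.2 overlapped. The contrast was 5.09 ± 0.21 in jerboa and 0.003 ± 0.16 in mouse (log2 ± SE), for an interaction of 5.09 ± 0.27 (adjusted p = 6.7e-09 by edgeR). The mouse gene lies on GRCm38 chromosome 5, 72300025 to 72504473.

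Dsp, which encodes desmoplakin, the protein that ties desmosomes to intermediate filaments, moved in opposite directions. Jerboa foot held 67.1, 90.4 and 104 CPM and jerboa forelimb 10.6, 7.45 and 8.53, and mouse foot held 0.375, 0.329 and 0.607 CPM against 2.38, 1.85 and 2.54 in mouse forelimb. The groups did not overlap in either species, and the interaction was 5.67 ± 0.33 (adjusted p = 1.3e-08 by edgeR). Keratinocytes also make desmoplakin, and 4 of 7 tested keratinocyte markers had a positive interaction with 0 negative (1 negative without jerboa foot replicate 3), among them Dsp itself, Trp63, a transcription factor of basal epidermis (2.15 ± 0.22), and Perp, a desmosome component (2.005 ± 0.36). Over all features 21.9% of interactions were positive and 25.8% negative. The keratinocyte sum counts Dsp itself, which makes up most of its jerboa foot value. This sum was 86.97 to 131 CPM in jerboa foot, 18.8 to 21.9 in jerboa forelimb, 17.1 to 21.7 in mouse foot and 16.02 to 16.9 in mouse forelimb. Of the markers, 8 others were below the filter, including the basal keratin gene Krt14 and the epithelial cadherin gene Cdh1, and the filaggrin gene Flg was at 0 in all 4 groups. The part of keratinocytes in these values was not tested.

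Other genes with opposite directions were Ptprv, Gpr83, Car14 and Grb14. Ptprv encodes a receptor-type tyrosine phosphatase and had the smallest adjusted p among the 24 largest interactions. It stood at 164, 154 and 124 CPM in jerboa foot and 22.8, 24.2 and 25.7 in jerboa forelimb, and at 14.9, 12.4 and 15.2 in mouse foot and 52.2, 44.7 and 54.2 in mouse forelimb (4.44 ± 0.16, adjusted p = 1.4e-10 by edgeR). Gpr83, a G protein-coupled receptor, rose in jerboa foot from 2.18 ± 0.433 to 15.03 ± 1.1 CPM and fell in mouse foot from 18.1 ± 1.08 to 4.33 ± 0.789 (SD, n = 3). Car14, a membrane carbonic anhydrase, rose by 1.80 ± 0.26 in jerboa foot and stood at -3.15 ± 0.21 in mouse foot. Grb14, an adaptor that dampens insulin receptor signalling, gave 2.81 ± 0.25 and -1.61 ± 0.22. Foot and forelimb libraries did not overlap for any of these 4 genes in either species.

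Mast cell proteases were also among the largest. Cma1, the chymase gene, was at 21.4, 10.1 and 15.9 CPM in jerboa foot and 0.831, 0.959 and 1.0 in jerboa forelimb, with overlapping mouse libraries at 72.4, 64.1 and 89.4 CPM in foot and 96.6, 81.8 and 79.1 in forelimb. Cpa3, the mast cell carboxypeptidase gene, was at 27.1, 11.6 and 19.5 CPM in foot and 1.3, 1.84 and 1.62 in forelimb in jerboa, and 69.9, 86.1 and 106 CPM in foot and 162, 120.3 and 109 in forelimb in mouse. Their interactions were 4.26 ± 0.33 and 4.18 ± 0.38, with jerboa forelimb far below jerboa foot in both. Only 4 of 12 listed markers of neutrophils and mast cells passed the filter. Besides Cma1 and Cpa3 these were S100a8, called below 0 (-3.11), and Kit, which was not called. The sum over the 7 with a feature, in which Cma1 and Cpa3 are counted, was 23.7 to 51.3 CPM in foot and 10.6 to 13.5 in forelimb in jerboa, and 177 to 248 CPM in foot and 214 to 277 in forelimb in mouse.

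In other cases the mouse contrast carried the difference. Pvalb, the calcium buffer parvalbumin of fast fibres, was at 1.5, 1.04 and 0.843 CPM in mouse foot and 91.2, 105 and 98.7 in mouse forelimb, and at 2.64, 2.59 and 1.22 CPM in foot and 6.43, 5.68 and 4.37 in forelimb in jerboa. Foot was below forelimb in both species, with contrasts of -6.45 ± 0.21 in mouse and -1.33 ± 0.23 in jerboa, and the interaction was 5.13 ± 0.34 (adjusted p = 3.9e-08 by edgeR). Tmem52, a transmembrane protein gene, had the same form, at 0.638, 0.549 and 1.01 CPM in mouse foot, 17.5, 15.3 and 18.7 in mouse forelimb, 17.4, 20.4 and 18.6 in jerboa foot and 23.1, 28.7 and 31.3 in jerboa forelimb. For these genes an interaction above 0 goes with a lower foot level in both species.

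**Figure D2:**
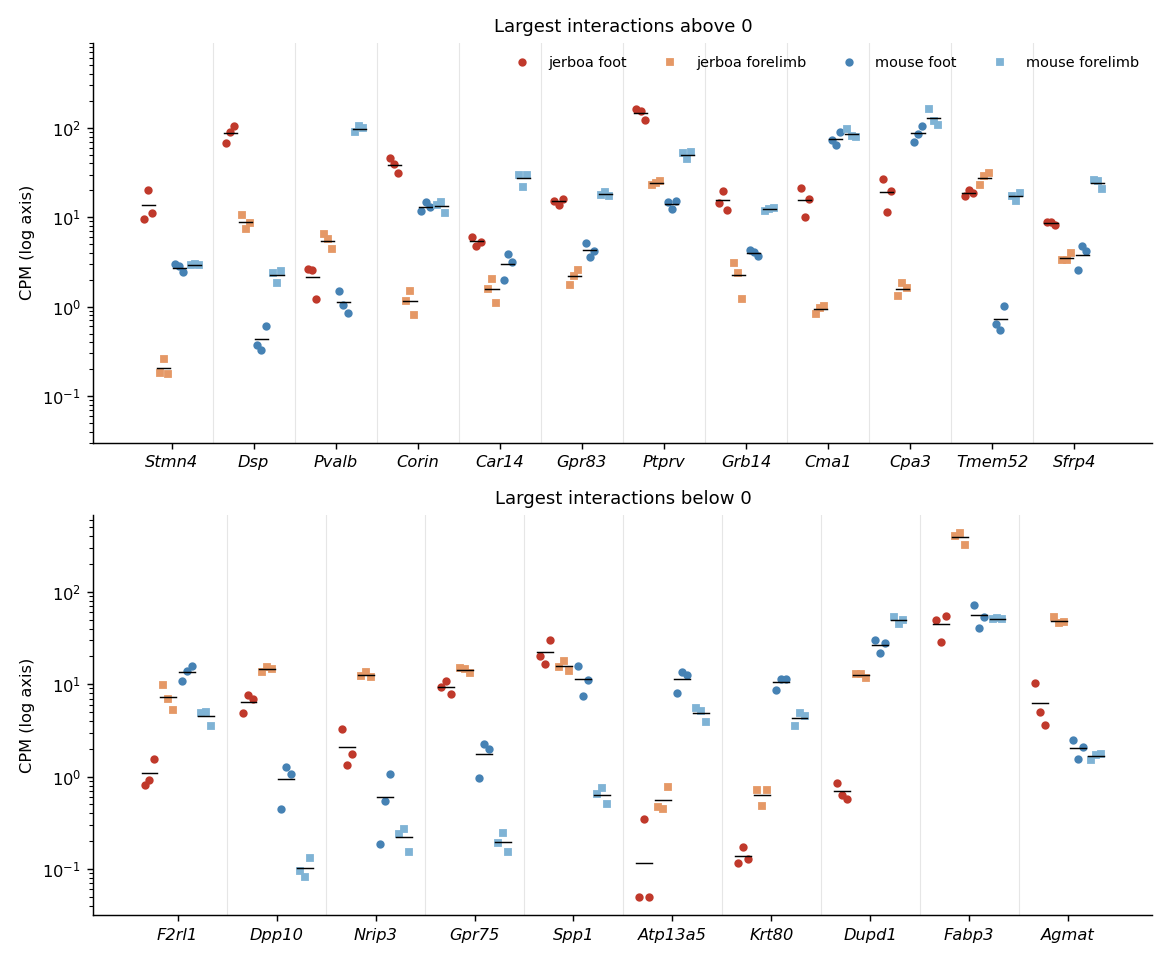
CPM on a log axis in each of the 12 P0 libraries (3 per group, points; lines are group means) for the 12 largest positive interactions and for 10 of the 12 largest negative ones, Nos1 not among them. Values of 0 are drawn at 0.05 CPM, which applies to 2 jerboa foot libraries of Atp13a5; circles are foot and squares forelimb, and Stmn4 and Corin show jerboa foot far above jerboa forelimb with overlapping mouse groups.

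Nos1, the neuronal nitric oxide synthase of the muscle membrane, ranked first among the negative interactions. It had 0 reads in the 3 jerboa foot libraries and 123 in jerboa forelimb, where the libraries stood at 0.831, 1.81 and 1.51 CPM. Taking 3 reads summed over the jerboa foot libraries as the floor, the gene was at least 23.3-fold lower there. Mouse foot stood at 20.4, 15.04 and 18.7 CPM and mouse forelimb at 45.05, 44.3 and 50.5, a fall of 2.59-fold. The interaction was called (adjusted p = 4.6e-04 by edgeR), and no fitted size is given because it depends on the prior count. Nos1 lies on GRCm38 chromosome 5, 117781032 to 117958840.

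Fabp3, the fatty acid binding protein of heart and slow muscle, fell in jerboa foot and was not called in mouse foot. Its level was 50.04, 28.9 and 54.3 CPM in jerboa foot and 406, 434 and 326 in jerboa forelimb, against 73.05, 40.3 and 53.3 in mouse foot and 51.1, 52.3 and 50.97 in mouse forelimb. The jerboa groups were far apart and the mouse groups overlapped, for an interaction of -3.24 ± 0.29 (adjusted p = 7.7e-07 by edgeR). Agmat, annotated as agmatinase, was similar at 10.3, 5.06 and 3.67 CPM in foot and 52.9, 46.6 and 47.1 in forelimb in jerboa, and 2.48, 1.54 and 2.09 CPM in foot and 1.52, 1.71 and 1.74 in forelimb in mouse (-3.21 ± 0.39). Dupd1, a dual specificity phosphatase of muscle, was at 0.86, 0.632 and 0.579 CPM in jerboa foot, 12.9, 13.1 and 11.6 in jerboa forelimb, 30.5, 21.9 and 27.8 in mouse foot and 53.7, 45.3 and 49.7 in mouse forelimb. It was lower in the foot of both species with no overlap, at -4.16 ± 0.20 in jerboa and -0.89 ± 0.12 in mouse.

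Several of the largest negative interactions were opposite in direction. F2rl1, the protease-activated receptor PAR2 gene, was at 0.802, 0.919 and 1.54 CPM in jerboa foot and 9.83, 6.94 and 5.23 in jerboa forelimb, and at 10.9, 14.1 and 15.9 in mouse foot and 4.87, 5.05 and 3.51 in mouse forelimb (-4.37 ± 0.38, adjusted p = 5.1e-07 by edgeR). Foot was below forelimb in jerboa and above it in mouse, without overlap. Krt80, a keratin gene, fell from 0.637 ± 0.136 to 0.139 ± 0.0301 CPM in jerboa foot and rose from 4.32 ± 0.735 to 10.5 ± 1.65 in mouse foot. Its jerboa foot value rests on 7 reads. Atp13a5, a P5-type ATPase gene, was at 0, 0.345 and 0 CPM in jerboa foot, where all 6 reads came from replicate 2, and at 0.47, 0.443 and 0.768 in jerboa forelimb. Mouse foot held 8.11, 13.6 and 12.5 CPM and mouse forelimb 5.54, 5.07 and 3.86 (-3.47 ± 0.77, adjusted p = 0.0017); without jerboa foot replicate 2 the group had 0 reads and the fit gave no interpretable size.

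Another set turned on low mouse levels. Dpp10, an auxiliary subunit of voltage-gated potassium channels, was at 6.49 ± 1.44 CPM in jerboa foot against 14.6 ± 0.902 in forelimb. In mouse it was at 0.931 ± 0.426 against 0.103 ± 0.0263 CPM, from 13 forelimb reads. Gpr75 and Nrip3 had the same directions with 24 and 27 reads in mouse forelimb, though the mouse libraries of Nrip3 overlapped. Spp1, the osteopontin gene, differed on the mouse side instead, at 15.95, 7.52 and 11.1 CPM in foot and 0.642, 0.76 and 0.507 in forelimb, and its jerboa libraries overlapped at 20.2, 16.5 and 30.5 CPM in foot and 15.3, 17.8 and 13.9 in forelimb. The interactions of these 4 genes ran from -4.31 for Dpp10 to -3.66 for Spp1, and each was called by edgeR. Cnmd, the chondromodulin gene, reached -6.10 ± 0.59 but stayed under 10 CPM in all groups, at 1.98 ± 0.894 against 5.47 ± 0.575 in jerboa and 3.44 ± 1.66 against 0.14 ± 0.0509 in mouse.

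Arginine and nitric oxide genes split in both directions, with 8 of 25 tested members above 0 and 9 below, beside 21.9% and 25.8% of all features. Ass1, which makes argininosuccinate on the way from citrulline to arginine, was at 1627, 1796 and 1678 CPM in jerboa foot and 67.2, 79.7 and 50.5 in jerboa forelimb. In mouse it was at 6.98, 6.53 and 6.68 in foot and 1.43, 1.93 and 1.7 in forelimb. The gene was higher in the foot of both species without overlap, 25.9-fold in jerboa and 4.0-fold in mouse, so that the interaction was 2.69 ± 0.22 (adjusted p = 3.7e-07 by edgeR; mouse gene on GRCm38 chromosome 2, 31470207 to 31520672). Asl, the next enzyme of that route, went in opposite directions, at 62.3, 83.5 and 67.9 CPM in jerboa foot and 33.8, 39.1 and 38.1 in forelimb but 11.6, 11.3 and 10.8 in mouse foot and 16.9, 14.4 and 13.7 in mouse forelimb (1.36 ± 0.16). Gamt, which makes creatine from an arginine product, rose by 0.53 ± 0.088 in jerboa foot and stood at -0.54 ± 0.088 in mouse foot. Gucy1a2, a subunit of the soluble guanylate cyclase that nitric oxide activates, was at 0.456 ± 0.0571 CPM in jerboa foot and 4.12 ± 0.176 in forelimb, with an interaction of -2.77 ± 0.36. Of the list, the arginase and urea cycle genes Arg1, Arg2, Cps1 and Otc were below the filter.

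Contractile proteins are the bulk of a muscle fibre and come in fast, slow and developmental forms. Genes of the fast sarcomere had 6 of 14 interactions above 0 and 0 below (21.9% and 25.8% of all features), with a median of 0.49 against -0.041 over all features. The count below 0 was 1 with upper quartile scaling, with a filter of 1 read, with all 24 libraries, or without jerboa foot replicate 1 or 3, mouse foot replicate 2 or mouse forelimb replicate 3. Foot levels were lower in both species, since 13 of 14 were lower in jerboa foot (35.8% of all features were) and 14 in mouse foot (29.1%), with medians of -0.92 and -1.42. The myofibre marker sums also lay lower in the foot of both species, and their part in these values was not tested. Myoz3, a Z-disc protein of fast fibres, was at 15.2, 14.5 and 17.1 CPM in jerboa foot and 26.7, 28.4 and 23.1 in forelimb, and at 2.29, 0.714 and 0.877 CPM in foot and 27.8, 27.7 and 32.9 in forelimb in mouse (3.83 ± 0.32, adjusted p = 3.9e-07 by edgeR). Myh4, the fast myosin heavy chain IIb, was lower in both feet, at -2.13 in mouse and -0.48 in jerboa (1.65 ± 0.28). Its jerboa libraries overlapped, at 118, 135 and 131 CPM in foot and 116, 197 and 223 in forelimb, and its mouse libraries did not.

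Slow and cardiac genes went both ways, with 7 of 17 above 0 and 5 below (21.9% and 25.8% of all features). Without jerboa forelimb replicate 1 or replicate 2 the count above 0 was 4, and without jerboa forelimb replicate 3 or mouse forelimb replicate 2 the count below 0 was 3. Tpm3, a slow tropomyosin, was higher in jerboa foot (0.39 ± 0.14) and lower in mouse foot (-0.87 ± 0.14). Myl2, the slow regulatory light chain, was at 62.1, 20.6 and 23.1 CPM in jerboa foot against 487, 511 and 529.7 in forelimb, and at 89.5, 32.9 and 53.5 against 249.8, 206 and 216 in mouse. Foot was lower in both species for Myl2, and more so in jerboa (-1.91 ± 0.48, adjusted p = 0.0038 by edgeR). Tnnc1, the slow troponin C, was higher in both feet and less so in jerboa (0.84 against 1.31).

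Embryonic and perinatal genes had 5 of 10 below and 1 above (3 below without mouse forelimb replicate 2). Over all features 25.8% were below and 21.9% above. Myl4, the embryonic light chain, was not called between the limbs in jerboa (0.12 ± 0.077) and rose in mouse foot (0.78 ± 0.078). Nes, the intermediate filament nestin of young fibres and precursors, was opposite, at 2798 ± 36.8 CPM in jerboa foot and 4119.7 ± 293 in forelimb, and 997 ± 94.5 and 715 ± 25.9 in mouse. Myh3, the embryonic myosin, had no called interaction (-0.27 ± 0.19, adjusted p = 0.25) and neither did skeletal actin Acta1 (0.034 ± 0.16, adjusted p = 0.88). Perinatal myosin Myh8 fell steeply in both feet, from 12898 ± 459 to 1932 ± 277 CPM in jerboa and from 18178 ± 1850 to 4069 ± 1006 in mouse. Its interaction of -0.58 ± 0.21 (adjusted p = 0.031 by edgeR) was not called when any of 6 single libraries was left out, and was lowest in size at -0.36 without mouse foot replicate 1.

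**Figure D3:**
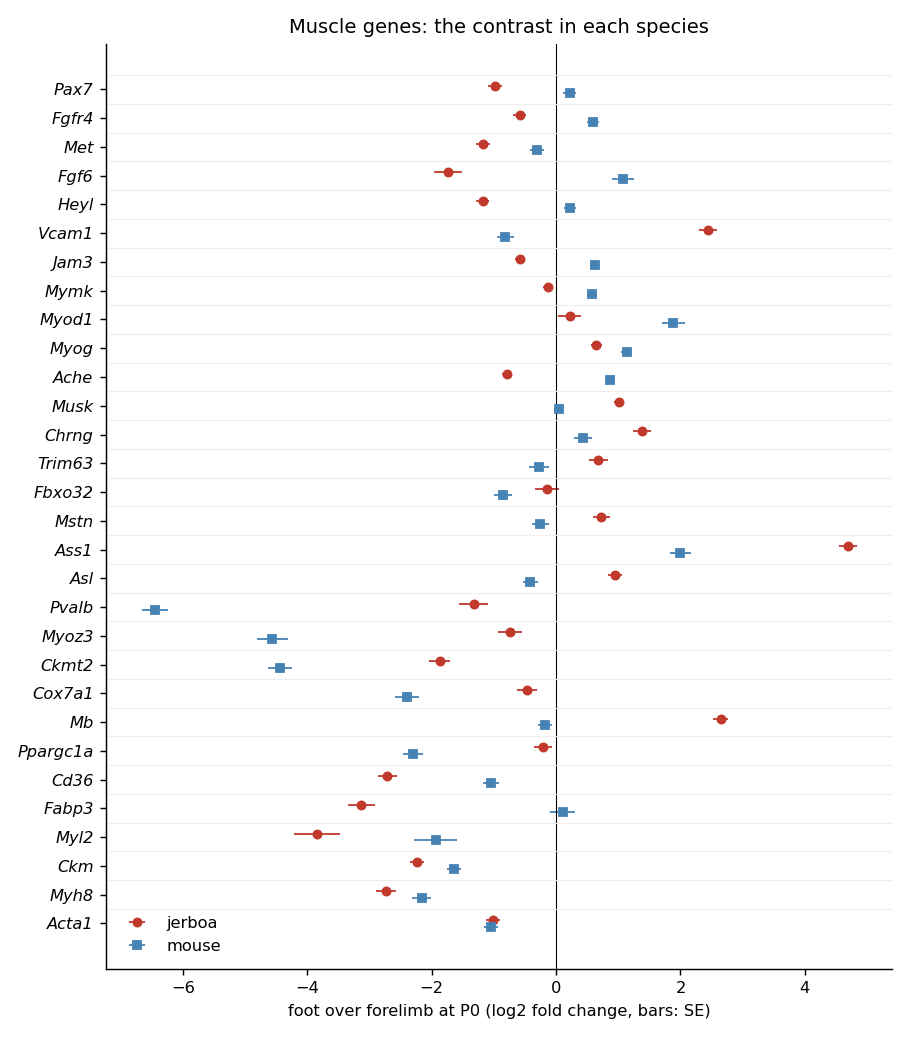
Log2 fold change of foot over forelimb at P0 in jerboa (circles) and mouse (squares) for 30 genes of muscle, with bars for the SE (3 libraries per group, 12 in the fit). Where the symbols of a gene lie apart there is an interaction: Mb at 2.65 and -0.18, and Fgf6 at -1.73 and 1.07, while both symbols of Acta1 lie near -1.

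Excitation-contraction coupling genes, which carry the signal from membrane to calcium release, had 12 of 28 interactions above 0 (21.9% of all features) and 3 below (25.8%). Of the list 17 were lower in jerboa foot (35.8% of all features) and 25 in mouse foot (29.1%). Ryr1, the calcium release channel, was at 678 ± 45.97 CPM in jerboa foot against 1438 ± 47.8 in forelimb and 365 ± 9.35 against 1229.7 ± 57.7 in mouse (0.67 ± 0.11). Kcnj2, an inward rectifier potassium channel, was lower in mouse foot (-2.13 ± 0.18) and not called in jerboa (-0.39 ± 0.20). Jph1, which holds the membranes of the triad together, followed the same form (0.97 ± 0.14).

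Of the energy genes, those of glycolysis and creatine phosphate had 10 of 24 above 0 and 3 below (21.9% and 25.8% of all features). Ckmt2, the mitochondrial creatine kinase of muscle, was at 113, 73.02 and 90.3 CPM in jerboa foot and 301, 377 and 332 in forelimb, and at 11.4, 7.44 and 12.8 CPM in foot and 237, 198 and 249.9 in forelimb in mouse. It was lower in both feet and far lower in mouse, for an interaction of 2.58 ± 0.24 (adjusted p = 1.1e-06 by edgeR). Ckm, the cytosolic form, went the other way, -2.24 in jerboa and -1.64 in mouse (-0.60 ± 0.16). Oxidative phosphorylation genes had 18 of 50 above 0 and 5 below, with foot medians of -0.47 in jerboa and -0.70 in mouse. Cox7a1, the muscle isoform of a cytochrome oxidase subunit, gave -0.46 ± 0.16 in jerboa and -2.40 ± 0.19 in mouse. Ppargc1a, the coactivator PGC-1alpha that promotes mitochondrial gene expression, was at 22.3, 16.4 and 20.6 CPM in foot and 22.7, 23.1 and 22.6 in forelimb in jerboa, where foot was not called, and at 5.41, 4.39 and 4.15 CPM in foot and 24.9, 17.7 and 26.02 in forelimb in mouse (2.10 ± 0.22).

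Genes of fatty acid use had 13 of 28 interactions below 0 and 7 above (25.8% and 21.9% of all features). Cd36, the fatty acid transporter, fell from 207 ± 46.7 to 31.7 ± 1.58 CPM in jerboa foot and from 269 ± 45.2 to 130.1 ± 3.33 in mouse foot (-1.66 ± 0.19, adjusted p = 6.8e-06 by edgeR). Endothelial cells also express Cd36, and the endothelial values given further on move in the same direction; their part was not tested. Mb, the oxygen store myoglobin, was among those above 0. It stood at 121, 152 and 131 CPM in jerboa foot and 20.7, 25.98 and 18.04 in jerboa forelimb, and at 49.5, 50.97 and 50.2 CPM in foot and 58.2, 60.8 and 52.2 in forelimb in mouse. All jerboa foot libraries lay above forelimb and all mouse foot libraries slightly below, though the mouse contrast was not called (adjusted p = 0.17), and the interaction was 2.83 ± 0.16 (adjusted p = 1.2e-08 by edgeR).

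Satellite cells are the stem cells of muscle, and Notch signalling keeps them quiescent. Of this list 13 of 24 interactions were below 0 and 2 above (25.8% and 21.9% of all features), with a median of -0.51. Of the 2 above 0, 1 was lost without any of 7 single libraries. Pax7, the transcription factor that defines the cells, was at 15.5, 20.1 and 15.7 CPM in jerboa foot and 32.3, 33.4 and 35.5 in jerboa forelimb, and at 43.9, 42.8 and 44.3 CPM in foot and 33.7, 43.3 and 35.7 in forelimb in mouse. Foot was lower in jerboa without overlap, the mouse libraries overlapped, and the interaction was -1.20 ± 0.15 (adjusted p = 1.9e-05 by edgeR). The Notch target Heyl fell in jerboa foot (-1.18 ± 0.10) and was not called in mouse (0.23 ± 0.094). Vcam1, an adhesion molecule of satellite cells and of activated endothelium, went against the list at 48.9, 43.3 and 42.8 CPM in jerboa foot and 9.97, 7.42 and 7.44 in forelimb, and 25.8, 18.01 and 18.7 CPM in foot and 38.9, 38.04 and 32.9 in forelimb in mouse (3.26 ± 0.20).

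Some growth factor genes that act on these cells also differed. Fgf6, a fibroblast growth factor made by muscle, was at 6.25, 4.19 and 3.47 CPM in jerboa foot and 14.7, 15.2 and 16.6 in jerboa forelimb, and at 56.3, 86.2 and 79.6 in mouse foot and 26.9, 36.2 and 42.6 in mouse forelimb. Foot was below forelimb in every jerboa library and above it in every mouse library, with an interaction of -2.81 ± 0.29 (adjusted p = 2.1e-06 by edgeR; mouse gene on GRCm38 chromosome 6, 127015586 to 127028187). Its receptor gene Fgfr4 had the same opposite directions, -0.59 ± 0.10 in jerboa and 0.60 ± 0.10 in mouse. Met, the receptor of hepatocyte growth factor, fell in both feet and more in jerboa (-1.17 against -0.30; -0.87 ± 0.16). Hgf, its ligand, was not called in jerboa (-0.18 ± 0.27) and fell in mouse foot, 0.413, 0.741 and 0.641 CPM against 4.07, 2.77 and 3.15 (interaction 2.26 ± 0.39). Igf1, insulin-like growth factor 1, fell in both, from 36.6 ± 4.43 to 5.86 ± 0.518 CPM in jerboa foot and from 477 ± 34.9 to 182 ± 30.1 in mouse foot (-1.25 ± 0.18). Of 22 genes of insulin-like growth factor signalling 8 interactions were below 0 and 4 above. Of 26 FGF and HGF genes 7 were below and 5 above (3 above with a filter of 50 reads). The FGF and HGF counts lie near the shares of all features, 25.8% below and 21.9% above.

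Myogenic regulators and fusion genes had 14 of 33 below 0 and 8 above (25.8% and 21.9% of all features). Myod1, a regulator of commitment to muscle, was at 196, 291 and 288 CPM in mouse foot and 56.8, 82.4 and 70.8 in mouse forelimb, and the jerboa libraries overlapped at 42.1, 70.5 and 42.6 CPM in foot and 44.3, 43.2 and 46.1 in forelimb (-1.67 ± 0.26, adjusted p = 1.1e-04 by edgeR). Myog, which drives differentiation, was higher in the foot of both species and less so in jerboa (0.65 against 1.13). Mymk, the fusion protein myomaker, was not called in jerboa (-0.13 ± 0.083) and rose in mouse foot (0.58 ± 0.083). Jam3, an adhesion molecule of myoblasts, was opposite, -0.57 ± 0.081 in jerboa and 0.63 ± 0.080 in mouse. Vgll3, a cofactor of TEAD factors, fell in jerboa foot, from 24.2 ± 2.34 to 6.98 ± 0.811 CPM, and was not called in mouse (interaction -1.85 ± 0.14). Mymx, the partner of myomaker, had no called interaction (-0.16 ± 0.14, adjusted p = 0.37), but without jerboa foot replicate 2 it was called at -0.32.

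Genes of the neuromuscular junction and of denervation had 12 of 32 above 0 and 10 below (21.9% and 25.8% of all features). Ache, which breaks down acetylcholine in the synapse, was opposite in direction, at 83.5, 91.8 and 79.3 CPM in jerboa foot and 144, 158 and 139.7 in forelimb and at 253, 267 and 272 CPM in foot and 147, 139 and 146 in forelimb in mouse (-1.67 ± 0.11, adjusted p = 2.7e-08 by edgeR). No library of either species crossed to the other side. Musk, the kinase that gathers receptors at the synapse, was higher in jerboa foot at 81.8, 94.8 and 91.3 CPM against 46.2, 42.7 and 44.5, and its mouse libraries overlapped at 40.99, 44.00 and 43.04 CPM in foot and 41.2, 39.5 and 43.7 in forelimb (0.96 ± 0.11). Chrng, the fetal receptor subunit, was higher in both feet and more in jerboa (1.38 against 0.43; 0.95 ± 0.20), while Chrna1, the subunit common to fetal and adult receptors, had no called interaction (-0.22 ± 0.12, adjusted p = 0.15). Schwann cell markers were below 0 in 8 of 12 cases, as with the neurotrophin receptor gene Ngfr (-1.30 ± 0.18) and the neuregulin receptor gene Erbb3 (-1.01 ± 0.12). They were above 0 in 1, Gfra3, a receptor of the GDNF family (2.54 ± 0.31); this count was 2 without any of 5 single libraries. The Schwann sum was 273 to 323 CPM in jerboa foot, 408 to 456 in jerboa forelimb, 812 to 886 in mouse foot and 699.7 to 734 in mouse forelimb, with no marker at 0, and its part in the synapse values was not tested.

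Among genes of muscle breakdown, Trim63, the ubiquitin ligase MuRF1 that marks atrophy, was at 124, 104 and 85.4 CPM in jerboa foot and 60.2, 66.8 and 68.4 in forelimb without overlap, and at 52.1, 33.6 and 37.6 CPM in foot and 57.6, 42.9 and 48.4 in forelimb in mouse, where the libraries overlapped (0.96 ± 0.22, adjusted p = 0.0021 by edgeR). Fbxo32, the ligase atrogin-1, was not called in jerboa (-0.15 ± 0.20) and fell in mouse foot (-0.85 ± 0.15); its interaction of 0.71 ± 0.25 lost its call without any of 6 single libraries, with values from 0.54 to 0.69, and by limma voom (0.69, adjusted p = 0.123). Mstn, the growth inhibitor myostatin, was at 185, 153 and 199.5 CPM in jerboa foot and 131, 103 and 90.6 in forelimb, and overlapped in mouse at 54.7, 42.8 and 41.05 CPM in foot and 56.7, 54.4 and 53.8 in forelimb (0.98 ± 0.19). In the list of ubiquitin ligases and atrophy 9 of 29 were above 0 and 3 below (21.9% and 25.8% of all features). Proteasome subunit genes were mostly not called, 4 of 35 above and 4 below, with a median of 0.016. That count above 0 was 13 without mouse foot replicate 1 and 7 with a block for the library number. Autophagy and lysosome genes had 8 of 27 above, led by the autophagosome protein Map1lc3a (1.20 ± 0.10), and 2 below, which was 0 without jerboa foot replicate 2, mouse foot replicate 2 or mouse forelimb replicate 3 and 1 without any of 5 others.

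Stress and cell death lists had calls on both sides, beside 21.9% above 0 and 25.8% below over all features. Of 32 apoptosis and p53 genes 12 were above 0 and 8 below (5 without replicate 1 of jerboa foot or of jerboa forelimb). Apaf1, the core of the apoptosome, fell in jerboa foot at 16.1, 16.9 and 15.1 CPM against 44.9, 43.1 and 41.5, and overlapped in mouse at 48.5, 57.1 and 53.5 CPM in foot and 44.7, 60.3 and 51.5 in forelimb (-1.45 ± 0.15, adjusted p = 2.0e-06 by edgeR). Xiap, an inhibitor of caspases, also fell further in jerboa (-0.92 ± 0.15), and Casp6, an effector caspase, rose in jerboa foot (0.92 ± 0.092) with no call in mouse (0.13 ± 0.097). Among 34 genes of endoplasmic reticulum and integrated stress 7 were above and 6 below, neither above the share of all features. Asns, asparagine synthetase and a target of the integrated stress response, was opposite, 0.91 ± 0.12 in jerboa and -0.81 ± 0.11 in mouse, and Atf4, the transcription factor of that response, rose in both and more in jerboa (0.51 ± 0.11). Cryab, a small heat shock protein that acts on desmin, was at 2045, 2197 and 3037 CPM in jerboa foot and 701, 763 and 699 in forelimb, and 603, 565 and 688 CPM in foot and 382, 383 and 404 in forelimb in mouse (1.08 ± 0.17). The mitochondrial chaperonin gene Hspd1 was below (-0.86 ± 0.14), and the chaperone list as a whole had 6 above and 6 below of 25 (10 below with upper quartile scaling or with all 24 libraries in the fit). Immediate early genes, which rise within minutes of a stimulus and with handling, had 7 of 28 above 0, but 3 without mouse forelimb replicate 2, and 2 below, which fell to 0 without any of 4 single libraries and to 1 without any of 6 others. Nr4a1, an orphan nuclear receptor of that list, was opposite, 0.68 ± 0.21 in jerboa and -0.83 ± 0.19 in mouse.

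Cell cycle genes were lower in jerboa foot relative to the mouse contrast, 19 of 44 below 0 and 4 above, against 25.8% and 21.9% of all features. In mouse 32 were higher in foot than forelimb (29.7% of all features were) and 1 lower (29.1%), and in jerboa 20 were higher (32.7%) and 8 lower (35.8%). Mcm5, a subunit of the replication helicase, was opposite, -0.61 ± 0.10 in jerboa and 0.61 ± 0.096 in mouse. Ccnd2, a cyclin of the G1 phase, was at 51.5, 49.5 and 42.3 CPM in jerboa foot and 71.7, 71.2 and 72.8 in forelimb, and 147, 159 and 152 CPM in foot and 94.5, 115 and 103 in forelimb in mouse (-1.14 ± 0.12, adjusted p = 3.1e-06 by edgeR).

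Wnt signalling genes had 16 of 35 interactions above 0 and 6 below (21.9% and 25.8% of all features), with 7 called in opposite directions. The largest 3 in size were in genes of secreted antagonists. Frzb was at 36.1, 20.8 and 25.9 CPM in jerboa foot and 5.02, 6.57 and 4.55 in jerboa forelimb, and at 15.1, 18.6 and 16.5 CPM in foot and 34.4, 29.96 and 31.8 in forelimb in mouse (3.30 ± 0.25, adjusted p = 1.4e-07 by edgeR). Dkk2 was at 29.9, 32.7 and 34.98 CPM in foot and 10.2, 9.15 and 9.12 in forelimb in jerboa, and 15.7, 18.4 and 16.7 CPM in foot and 39.4, 30.5 and 37.3 in forelimb in mouse (2.85 ± 0.16). Sfrp4 was at 8.94, 8.91 and 8.23 CPM in foot and 3.29, 3.36 and 3.96 in forelimb in jerboa, and 2.55, 4.72 and 4.15 CPM in foot and 26.1, 25.2 and 20.9 in forelimb in mouse (3.93 ± 0.25). All 3 were higher in jerboa foot and lower in mouse foot, with no overlap of libraries in either species. The Wnt receptor gene Ror2 rose in jerboa foot (1.21 ± 0.081) with no call in mouse (-0.057 ± 0.080).

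TGF-beta, BMP and activin genes had 15 of 41 above 0 and 8 below (21.9% and 25.8% of all features). Ltbp1, which stores latent TGF-beta in the matrix, was at 814, 857 and 769.8 CPM in jerboa foot and 278, 294 and 332 in forelimb, and at 69.97, 64.7 and 69.9 CPM in foot and 93.2, 92.8 and 91.6 in forelimb in mouse (1.87 ± 0.11, adjusted p = 1.3e-08 by edgeR). The ligands Gdf11 (-0.94 ± 0.16 in jerboa, 0.86 ± 0.11 in mouse) and Inhbb (-0.55 ± 0.25, not called, and 2.15 ± 0.21) and the coreceptor Tgfbr3 (-1.71 and -0.38) had interactions below 0. Retinoic acid genes had 7 of 17 below 0 and 2 above. Aldh1a3, an enzyme that makes retinoic acid, was opposite, at 17.5, 14.2 and 20.1 CPM in jerboa foot and 30.6, 30.4 and 26.96 in forelimb, and 103, 87.6 and 87.3 CPM in foot and 37.2, 34.9 and 33.9 in forelimb in mouse (-2.16 ± 0.15). Crabp2, which carries retinoic acid to its receptors, was higher in both feet and less so in jerboa (0.71 against 3.28; -2.57 ± 0.18).

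Limb patterning genes serve as a check of tissue as well as a readout. Tbx4 and Pitx1, which specify the hindlimb, were higher in foot in both species, and the jerboa contrast was the larger. Tbx4 was at 123, 128 and 105 CPM in jerboa foot and 3.36, 4.94 and 4.58 in jerboa forelimb, and at 56.3, 61.2 and 64.02 CPM in foot and 16.6, 17.6 and 16.7 in forelimb in mouse (2.95 ± 0.16, adjusted p = 6.7e-09 by edgeR). Pitx1 was at 11.3, 11.3 and 11.5 CPM in foot and 0.181, 0.295 and 0.0886 in forelimb in jerboa, and 6.42, 6.29 and 6.17 CPM in foot and 0.452, 0.57 and 0.551 in forelimb in mouse (2.36 ± 0.37). The jerboa forelimb levels of Pitx1 were near the counting floor, so the size of its jerboa contrast is imprecise. Its interaction ran from 1.98 to 2.825 when single libraries were left out. Tbx5, the forelimb counterpart, was at 1.43, 0.0575 and 0.321 CPM in jerboa foot and 8.45, 8.78 and 9.83 in forelimb, and 0.113, 0.0823 and 0.0337 CPM in foot and 11.1, 13.6 and 14.9 in forelimb in mouse. The first jerboa foot library stood above the others, and the interaction of 3.502 ± 0.86 dropped to 1.78 and lost its call without it (adjusted p = 0.097). Hoxd9 was opposite, 1.60 ± 0.18 in jerboa and -1.03 ± 0.16 in mouse. The list had 10 of 29 above 0 and 5 below (8 below without jerboa foot replicate 2 or jerboa forelimb replicate 3), and 5 members, among them Hoxc6 and Hoxc8, were below the filter. Over all features 21.9% were above 0 and 25.8% below. At P3 the interaction of Tbx5 was not called (3.27 ± 2.20, adjusted p = 0.21).

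Extracellular matrix genes had 21 of 41 interactions above 0, 7 below and 13 not called, with foot medians of 0.30 in jerboa and -0.14 in mouse. Over all features 21.9% were above 0 and 25.8% below. Dcn, the proteoglycan decorin that binds collagen fibrils, was at 2371, 2449 and 2375 CPM in jerboa foot and 1257, 1253 and 1299 in forelimb, and at 481, 372 and 416 CPM in foot and 901, 724 and 686 in forelimb in mouse (1.78 ± 0.15, adjusted p = 4.4e-07 by edgeR). Col14a1, a collagen on the surface of fibrils, was opposite in the same way (1.04 ± 0.11 and -0.86 ± 0.11), and Serpinh1, the collagen chaperone HSP47, rose in jerboa (0.97 ± 0.084) with no call in mouse (-0.16 ± 0.083). Lum, the proteoglycan lumican, was not called in jerboa (0.11 ± 0.15) and fell in mouse foot (-1.91 ± 0.16). Acan, the large proteoglycan of cartilage, is not in this list but among the cartilage markers, whose counts are given below. It was at 86.7, 86.8 and 65.5 CPM in jerboa foot and 2.46, 3.62 and 3.57 in jerboa forelimb. In mouse it was at 40.8, 20.3 and 24.3 CPM in foot and 21.8, 13.4 and 16.1 in forelimb, where the libraries overlapped (3.90 ± 0.34).

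Fibro-adipogenic markers, of which 6 of 11 interactions were above 0 and 2 below, summed to 3298 to 3422 CPM in jerboa foot, 2279 to 2410.3 in jerboa forelimb, 1381 to 1510 in mouse foot and 2214 to 2596 in mouse forelimb. The jerboa foot sum was above its forelimb and the mouse foot sum below, without overlap. Dcn and Lum, described above with the matrix genes, are counted in these sums, and Dcn makes up most of the jerboa foot value. Of the 11 markers 4 were higher and 4 lower in jerboa foot (32.7% and 35.8% of all features). In mouse foot 2 were higher and 8 lower (29.7% and 29.1%). Over all features 21.9% of interactions were above 0 and 25.8% below. Tendon markers had 7 of 13 above 0 and 0 below, and sums of 26043 to 28906 CPM in foot and 17835 to 18646 in forelimb in jerboa, and 13863 to 15198 CPM in foot and 11625 to 12410 in forelimb in mouse. Among them Comp, a matrix protein of tendon and cartilage, was at 103, 94.3 and 84.3 CPM in jerboa foot and 8.2, 10.4 and 9.68 in forelimb (2.42 ± 0.22). Cartilage markers had 3 of 11 above (5 without mouse forelimb replicate 3) and 3 below (1 with a filter of 50 reads), with sums of 2499.6 to 3233 CPM in foot and 1682 to 1872 in forelimb in jerboa, and 618 to 762 CPM in foot and 489 to 649 in forelimb in mouse. Foot was the higher of the limbs in the tendon sums of both species. The collagen I gene Col1a1 is counted in these tendon sums and also in the bone sums that follow, so neither is specific to its tissue. Of 12 bone markers 5 were tested, with 1 interaction above 0 and 1 below (0 below with a filter of 50 reads). Sp7, Ibsp, Dmp1 and Mepe were below the filter, and 3 others had no feature. Sp7 and Mepe had no read in jerboa foot. The bone sums were 20614 to 23253 CPM in foot and 15385 to 16085 in forelimb in jerboa. In mouse they were 11229 to 12164 CPM in foot and 10300 to 10873 in forelimb. The part of these cell types in the matrix values was not tested.

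All 10 tested endothelial markers had interactions below 0, with a median of -1.01, and their sum was 222 to 265 CPM in jerboa foot and 739 to 801 in jerboa forelimb, and 729 to 845 CPM in foot and 1022 to 1110.2 in forelimb in mouse, with none at 0. Tek, the angiopoietin receptor, was at 16.8, 14.5 and 14.5 CPM in jerboa foot and 92.5, 78.3 and 87.5 in forelimb, and at 28.2, 24.4 and 25.2 CPM in foot and 54.8, 56.9 and 53.9 in forelimb in mouse (-1.40 ± 0.13, adjusted p = 7.0e-07 by edgeR). Cdh5, the cadherin of endothelial junctions, gave -2.04 in jerboa and -0.69 in mouse. Macrophage markers had 9 of 13 below 0 and 0 above, and summed to 166 to 238 CPM in jerboa foot, 421 to 438 in jerboa forelimb, 331 to 361 in mouse foot and 348 to 381 in mouse forelimb. Csf1r, the growth factor receptor of macrophages, was at 31.4, 21.4 and 24.3 CPM in jerboa foot and 83.8, 85.2 and 85.5 in forelimb, and 44.2, 48.4 and 53.9 CPM in foot and 67.5, 66.2 and 63.6 in forelimb in mouse (-1.29 ± 0.15). Smooth muscle and pericyte markers had 6 of 12 below and 1 above, the latter 0 without mouse foot replicate 1. Over all features 25.8% of interactions were below 0 and 21.9% above. For lymphocytes 10 of 11 markers were below the filter, and only the pan-leukocyte gene Ptprc was tested (-1.30 ± 0.39).

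**Figure D4:**
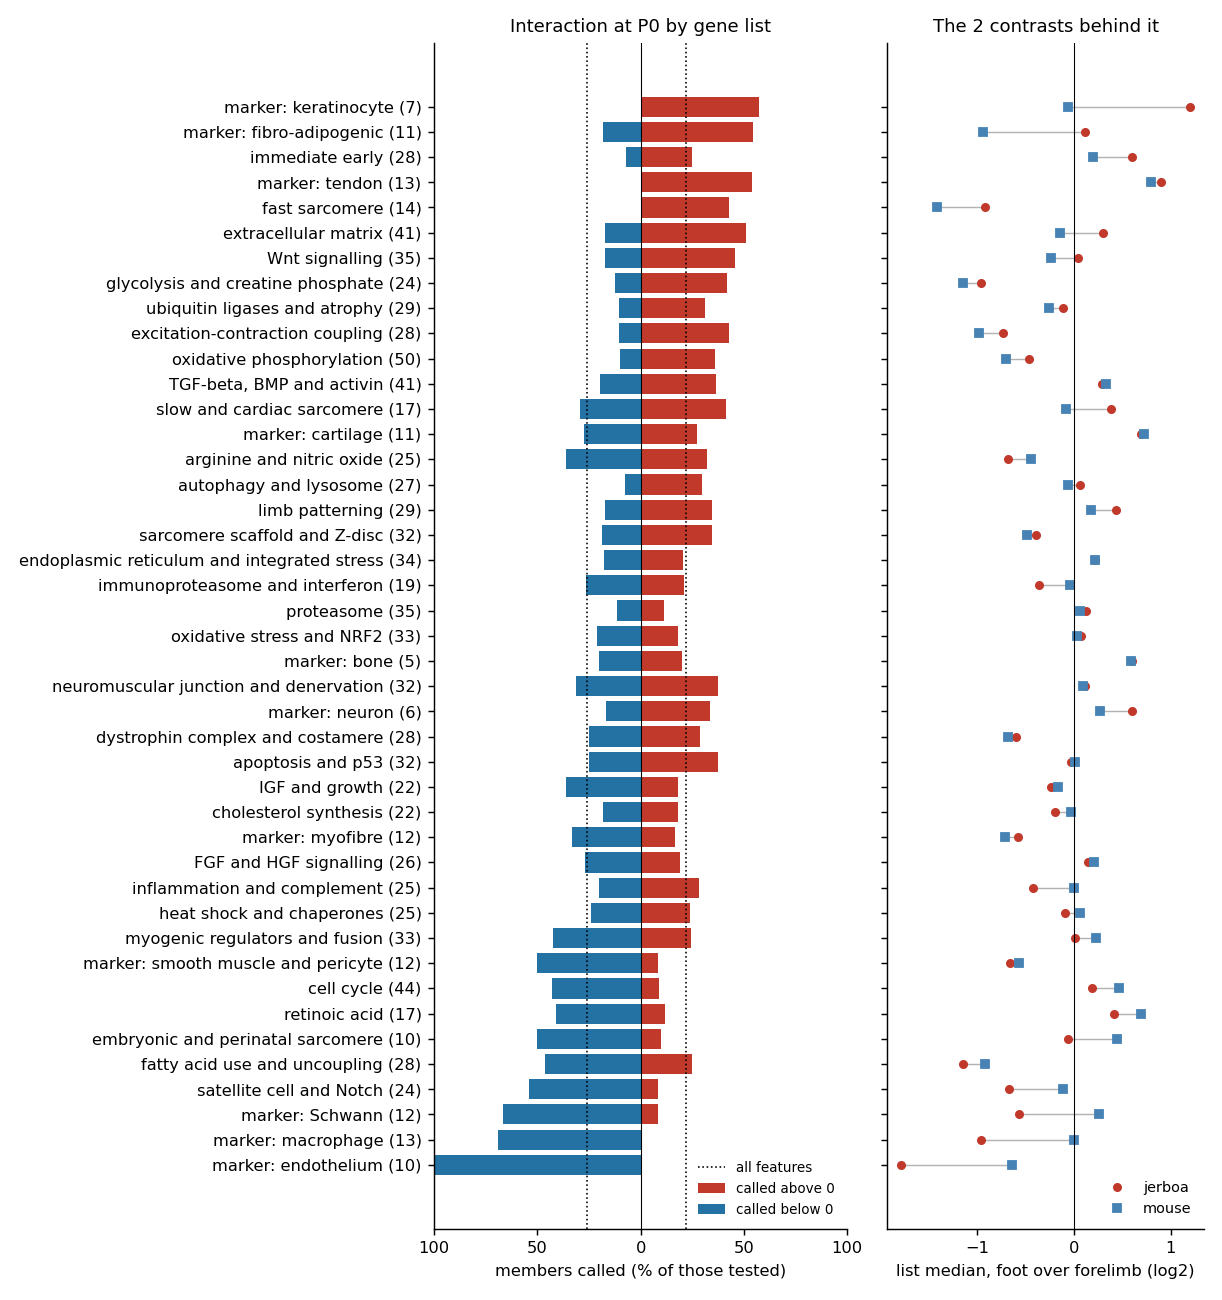
For each gene list (number of members tested in brackets), the left panel gives the percentage with an interaction called above 0 (red, to the right) and below 0 (blue, to the left) at P0, with dotted lines for all features (21.9% and 25.8%). The right panel gives the list's median log2 fold change of foot over forelimb in jerboa (circles) and mouse (squares), and lists with under 5 members tested are left out; endothelial markers lie at the bottom with 10 of 10 below 0.

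Other lists had calls on both sides, many of them near the shares of all features (21.9% above 0 and 25.8% below). Sarcomere scaffold and Z-disc genes had 11 of 32 above 0 and 6 below, with the giant protein titin (Ttn) lower in both feet and more in jerboa (-0.70 ± 0.17). Dystrophin complex and costamere genes had 8 of 28 above and 7 below, led by Sgcd, a sarcoglycan (1.75 ± 0.15), which fell in mouse foot (-1.52 ± 0.11) and was not called in jerboa (0.23 ± 0.10). Interferon and immunoproteasome genes had 4 of 19 above and 5 below (3 with a filter of 50 reads), and the interferon-induced gene Ifit1 was at 0.745, 0.919 and 0.90 CPM in jerboa foot and 4.77, 2.8 and 5.02 in forelimb (-2.54 ± 0.49). Oxidative stress genes had 6 of 33 above and 7 below. Inflammation and complement genes had 7 of 25 above, such as the complement protease C1s1 (1.64 ± 0.21), and 5 below, such as the complement recognition subunit C1qa (-1.32 ± 0.18), which macrophages make. Cholesterol synthesis genes had 4 of 22 on each side, but between 2 and 4 above and between 2 and 7 below when single libraries were left out.

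The same interaction was measured at postnatal day 3 (P3) in the other 12 libraries, with all 24 in the fit and the same 12419 features. At P3 6826 interactions were called (55.0%), and in that same fit of 24 libraries, which has more residual degrees of freedom, P0 had 6780 (54.6%). The P0 calls of the 12-library fit and the P3 calls shared 4028, which was 68.0% of the P0 calls and 59.0% of the P3 calls, and 3805 of them had the same direction while 223 did not. Across genes the interactions of the ages had a Pearson's r of 0.701 and a Spearman's rho of 0.652 (n = 12419 features, from separate libraries). The labels describe the P0 reads as trimmed and the P3 reads as raw, so age and that step cannot be told apart.

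All 12 of the largest positive interactions at P0 were also called above 0 at P3, with Stmn4 at 8.92 ± 0.62 and Corin at 5.33 ± 0.25. Of the 12 largest negative ones 10 were called below 0 at P3, Dupd1 for example at -4.49 ± 0.21. Spp1 was not called at P3 (0.33 ± 0.48, adjusted p = 0.58 by edgeR). A test of the difference between the ages called 2985 features, 1521 higher at P0 (12.2%) and 1464 lower (11.8%). Of 198 genes named by the rule, without Nos1, 82 were called different.

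Several of the muscle genes were among those that differed by age. Ass1 went from 2.69 at P0 to 4.85 at P3 (difference -2.15, adjusted p = 4.2e-05 by edgeR) and Mb from 2.83 to 4.63 (-1.80, adjusted p = 1.2e-04). Perinatal myosin Myh8 went from -0.58 to -2.82 and the embryonic light chain Myl4 from -0.66 to -2.77, both further below 0 at P3. Myod1 went the other way, from -1.67 to 0.15 (difference -1.81, adjusted p = 0.0014 by edgeR). Dsp went from 5.67 to 2.65 and remained called above 0. Pax7 (-1.20 and -1.24), Fgf6 (-2.81 and -2.86) and Ltbp1 (1.87 and 1.77) were not called different between the ages. Among lists, proteasome genes had 25 of 35 above 0 at P3 (26.8% of all features were) beside 4 at P0 in the 12-library fit, 8 at P0 in the 24-library fit and 13 at P0 without mouse foot replicate 1. At P3 embryonic and perinatal sarcomere genes had 8 of 10 below (28.2%) beside 5 at P0 in the 12-library fit, and endothelial markers had 10 of 10 below at both ages.

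**Figure D5:**
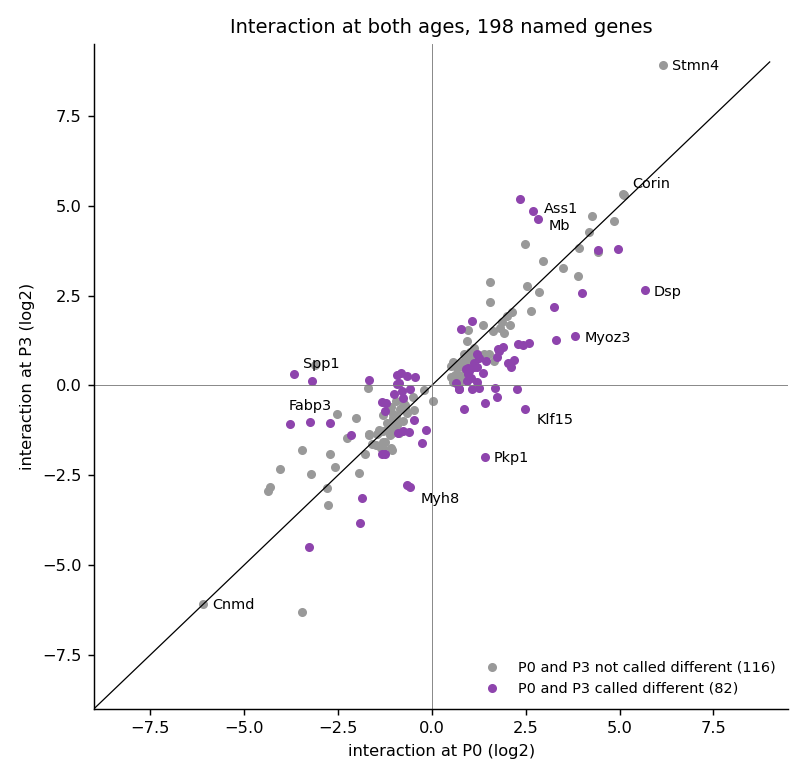
Interaction at P0 (horizontal) against P3 (vertical), log2, for the 198 genes named by the rule other than Nos1, with the line of equal values. The 82 genes called different between the ages are purple and the other 116 grey; Corin lies close to the line at 5.09 and 5.33, and Dsp and Myoz3 lie below it.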

How the data were processed

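Total RNA of 24 muscle libraries was sequenced, and the 12 of P0 carry the results here; the 12 of P3 serve for the comparison of ages. The authors deposited raw read counts per feature, each named by a mouse Ensembl transcript ID; STAR is named in the submitters' processing notes without a version, and the genome builds, the jerboa annotation and the counting settings were not given in any source used here. Of the deposited counts the column of the opposite strand was used, and either strand was tried as an alternative. Symbols and mouse positions came from GENCODE M21 (GRCm38), which gave 17529 of 17641 features a symbol. For 5 symbols on more than 1 feature the one with most P0 reads was used.

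Features with at least 10 reads in at least 3 jerboa and 3 mouse P0 libraries were scaled by TMM and tested with edgeR 4.0.16 in R 4.3.3 (quasi-likelihood, 4 groups, 8 residual degrees of freedom). P-values were adjusted over all 12419 features. The P3 interaction and the difference between ages came from a fit of all 24 libraries. Alternatives changed the scaling, the filter, the count column, the samples fitted or the test (limma 3.58.1, DESeq2 1.42.0, a minimum fold), added a block for the library number, or left out each library in turn.

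Named genes were the 12 largest called interactions in each direction with at least 10 CPM in a group, the 6 largest in each direction with opposite contrasts, up to 4 called members of each list with the smallest p, and 24 preset genes, 199 in all, of which a few are not reported here. The comparison and the lists (32 of pathways, 15 of cell types) were chosen with earlier results of these data known. Tested on simulated data of 12419 features, the P0 interaction test recovered 36% of 50 changes of 1.5-fold and 80% of 50 changes of 2-fold, and 6.96% of its 115 calls were false. The simulation changed 50 features at each of 1.25-, 1.5-, 2- and 4-fold and left the rest unchanged. That is far fewer than the 5925 called in the data, so these rates may not hold there.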

Additional observations from a re-analysis of the deposited data

Results flagged for a closer look

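The effect of limb differed between the species for 5925 features at P0 by the interaction test, and the species by limb interaction differed between P0 and P3 for 2985 features by the test of that difference (edgeR, adjusted p under 0.05).

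Of the named genes reported here, 6 had interactions called in opposite directions at the 2 ages. Myoz1, a Z-disc protein of fast fibres, went from 0.86 at P0 to -0.65 at P3, a difference of 1.503 on the log2 scale. Its mouse foot libraries stood at 227, 129.9 and 176 CPM at P0, below all 3 mouse forelimb libraries at 819, 712 and 758.

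The other shifts ran upwards from P0 to P3 except in Pkp1. The proteasome subunit gene Psma6 went from -0.82 to 0.33 (difference -1.15) and Psmd11, of the regulatory particle, from -0.44 to 0.22 (difference -0.66). Gclc, which limits glutathione synthesis, went from -0.92 to 0.30 (difference -1.22), and the cochaperone gene Stip1 from -0.65 to 0.26 (difference -0.91). Pkp1, a desmosome plaque protein, went from 1.41 to -1.99 (difference 3.40). It rested on 52 reads in mouse foot at P0, and its P0 call was lost without mouse foot replicate 2 (1.08, adjusted p = 0.0524 by edgeR). Whether the trimming of reads labelled for P0 bears on these shifts was not tested.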

How the results depend on the processing

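With a minimum change of 2-fold built into the test (edgeR's glmTreat), the interactions called at P0 fell from 5925 to 574, with 265 above 0 and 309 below; 7 features were then called higher in jerboa foot and lower in mouse foot, 4 the reverse, and the single contrasts had 1247 calls in jerboa and 452 in mouse. That test asks for more than a difference from 0. Every other alternative run left these counts within 1.5 times their value. Leaving out 1 library at a time gave 5291 to 6152 interactions called, 2438 to 2861 above 0 and 2853 to 3291 below, 314 to 412 and 355 to 495 in opposite directions, 7899 to 8792 jerboa contrasts and 6444 to 7508 mouse contrasts. Upper quartile scaling gave 2383 above and 3678 below. The libraries share numbers across limbs. Same-numbered libraries did not deviate together in jerboa (r from -0.076 to -0.023). In mouse r was weakly positive, from 0.052 to 0.153, and mouse foot 1 gave -0.105 and -0.069 with the other forelimb numbers. Of the 6 foot libraries 2 correlated best with their own number, mouse foot 1 and mouse foot 2. A replicate block within species called 5830, of which 5627 were shared with the unblocked fit. No named gene with a called interaction changed sign under any alternative run; Acta1, which was not called, ran from -0.031 to 0.13. The 2-fold minimum removed the call of 119 of 199, and calls lost under other alternatives are given beside the genes described. Depth limits genes with few reads, such as Atp13a5, Krt80 and Tbx5.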
